A study of Mus musculus with 11 samples.

Results

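The genes examined here make cholesterol and fatty acids. A list of 32 genes was taken as the set, 21 of sterol synthesis and sterol sensing and 11 of fatty acid synthesis. A gene was measured through a probe set whose only listed gene symbol was that gene, and where several qualified the one with the highest mean intensity was used. By this rule 30 of the 32 were measured, of 12393 genes measured in all, and Acat2 and Insig1 were not analysed here. All 30 passed the filter on low levels that left 7436 genes for testing, namely 19 sterol genes and 11 fatty acid genes.

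The series measured T cells of the B10.BR mouse strain after 4 days with dendritic cells of the C57BL/6 strain, which carries different histocompatibility genes, so that the responding T cells are alloreactive. The dendritic cells came from the liver, from the organs labelled MLN and PLN, or from the spleen, and the question was whether the organ of the dendritic cells changes the T cell response. There were 3 arrays for liver, MLN and PLN, with the replicate numbers 2, 3 and 4, and 2 for spleen, with the numbers 3 and 4. No T cells without dendritic cells and no dendritic cells without T cells are among these samples, and the labels give no age, sex or T cell subset. What a replicate number stands for is not stated, nor whether arrays of one organ come from separate cultures or mice. Every p-value therefore measures only how these arrays spread, and that spread may be technical.

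Cholesterol is built from acetyl-CoA through mevalonate and squalene, and fatty acids are built from the same acetyl-CoA through malonyl-CoA. Both pathways are switched on by the sterol regulatory element binding proteins, SREBP2 (gene Srebf2) chiefly for sterol enzymes and SREBP1 (gene Srebf1) chiefly for fatty acid enzymes. When sterols in the endoplasmic reticulum fall, the escort protein Scap carries these factors to the Golgi, where they are cut and released to the nucleus, whereas the Insig proteins hold them back when sterols are plentiful. Activated T cells are known to raise both pathways, since dividing cells need new membrane. SREBPs bind sterol regulatory elements and E-boxes, and neighbouring CCAAT boxes bind the cofactor NF-Y.

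Promoter sequence is shown for the 4 genes with 1 listed transcription start that differed between arrays of every pair of replicate numbers, and for Acaca, which was lower in number 4 where most of the set was higher. These are the 250 bases before the transcription start in RefSeq's annotation of GRCm38.p6, 5′ to 3′ on the gene's own strand. Capitals mark CCAAT, a match on the opposite strand appearing as ATTGG, and the element TCACNCCAC. The windows are chr13:119690101-119690350 (plus strand) for Hmgcs1, chr5:4104698-4104947 (minus strand) for Cyp51, chr13:8885356-8885605 (plus strand) for Idi1, chr11:120824548-120824797 (minus strand) for Fasn and chr11:84195188-84195437 (plus strand) for Acaca.
Hmgcs1: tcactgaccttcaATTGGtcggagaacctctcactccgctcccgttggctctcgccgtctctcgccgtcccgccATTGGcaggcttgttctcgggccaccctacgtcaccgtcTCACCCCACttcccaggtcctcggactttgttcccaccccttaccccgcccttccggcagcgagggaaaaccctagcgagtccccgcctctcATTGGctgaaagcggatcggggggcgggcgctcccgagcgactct
Cyp51: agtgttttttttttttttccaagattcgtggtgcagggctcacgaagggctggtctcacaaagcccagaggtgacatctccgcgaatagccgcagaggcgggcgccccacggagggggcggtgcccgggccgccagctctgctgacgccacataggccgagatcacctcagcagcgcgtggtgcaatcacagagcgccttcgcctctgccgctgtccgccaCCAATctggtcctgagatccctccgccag
Idi1: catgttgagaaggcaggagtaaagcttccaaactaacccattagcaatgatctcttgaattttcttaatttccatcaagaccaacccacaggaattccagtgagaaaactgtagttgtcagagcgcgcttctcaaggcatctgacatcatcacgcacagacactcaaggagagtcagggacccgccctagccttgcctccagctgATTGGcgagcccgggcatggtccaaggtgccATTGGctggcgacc
Fasn: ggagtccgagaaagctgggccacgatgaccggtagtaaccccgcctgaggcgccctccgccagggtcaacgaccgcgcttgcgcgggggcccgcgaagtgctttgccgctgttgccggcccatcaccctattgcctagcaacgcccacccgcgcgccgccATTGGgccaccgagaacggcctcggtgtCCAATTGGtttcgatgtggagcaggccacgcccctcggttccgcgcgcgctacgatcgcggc
Acaca: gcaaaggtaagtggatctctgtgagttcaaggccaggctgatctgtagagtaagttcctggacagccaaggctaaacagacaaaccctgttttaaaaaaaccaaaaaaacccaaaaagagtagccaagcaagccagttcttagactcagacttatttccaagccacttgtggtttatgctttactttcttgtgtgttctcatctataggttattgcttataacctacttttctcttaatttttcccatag
Hmgcs1 carries TCACCCCAC once and CCAAT 3 times in this stretch, Idi1 carries CCAAT 2 times, Cyp51 once and Fasn 3 times, of which 2 overlap as CCAATTGG. Acaca carries none of these letters before its listed start. Whether these cells use that start was not tested, so nothing is read from the missing matches.

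Promoter windows that add 50 bases after the start were found for 23 of the 30 measured genes. CCAAT on either strand was present for 14 of 15 sterol genes with a window (93.3%) and for 5 of 8 fatty acid genes (62.5%), against 41.1% of 27025 genes in the table. The sterol gene without it was Scap, which has 2 listed starts. Acaca, whose use of its listed start was not tested, is among the fatty acid genes without it. Among genes with 1 listed start it was present for 12 of 12 sterol genes, against 38.2% of all such genes. The element TCACNCCAC was present only for Hmgcs1, 1 of 15 sterol genes (6.67%), and for 0 of 8 fatty acid genes, against 1.44% of all genes. The E-box CACGTG, which reads the same on both strands, was present for 4 of 15 sterol genes (26.7%) and 1 of 8 fatty acid genes (12.5%), against 8.09%. Overlapping matches each counted, and genes with several listed starts have more chances of a match. The 27025 genes were not limited to genes that passed the low filter, as all 30 measured genes of the set did. A match is a description of letters and not a binding site.

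**Figure D1:**
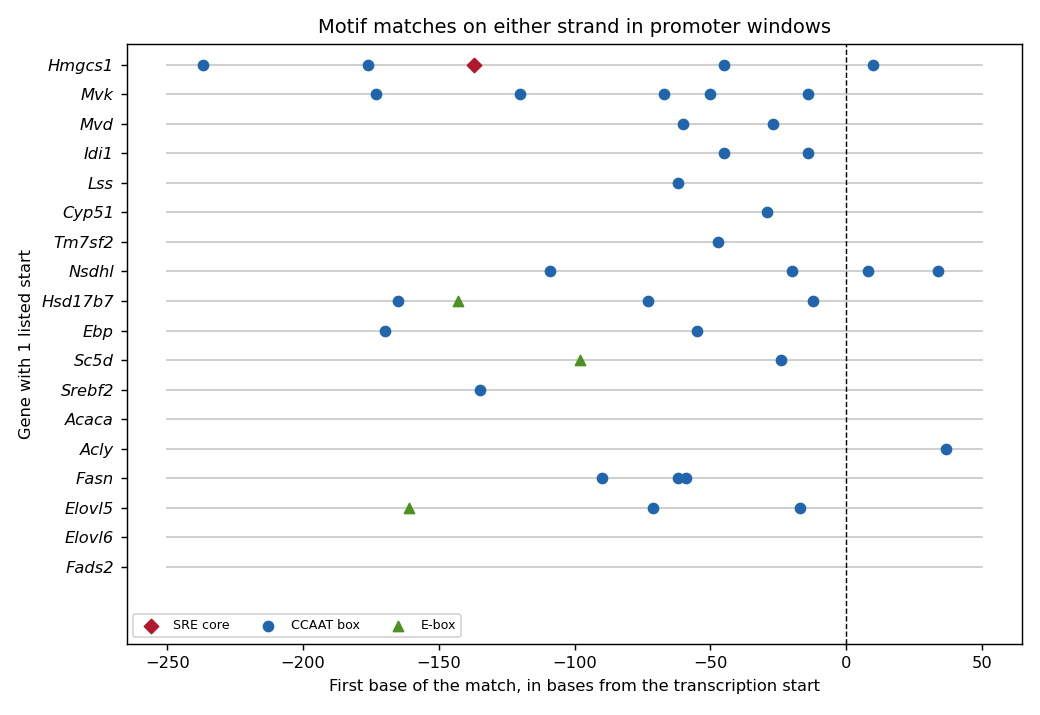
Position of each motif match (x axis, first base of the match in bases from the transcription start) in the promoter windows of the 18 measured genes with 1 listed start (y axis), on either strand. Blue circles mark CCAAT, the red diamond TCACNCCAC and green triangles CACGTG; all 12 sterol genes drawn, from Hmgcs1 to Srebf2, have at least 1 circle, and Acaca, Elovl6 and Fads2 have no match.

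All levels below are log2(intensity + 16) after quantile normalization, and a difference on this scale understates the change of a gene of low intensity. Array medians ran from 144.3 to 170.4 in intensity, and 12.9% to 16.5% of an array's probe sets lay under 16; in both measures the ranges of the 3 replicate numbers overlapped, as did the 3′ to 5′ ratios of the actin and Gapdh control probe sets. The T cell label was borne out by its markers: 8 of 9 listed T cell genes were measured and all 8 were tested, with Cd3d at 12.67 to 13.01 and Cd8a at 11.40 to 11.86 over the 11 arrays. Dendritic cell genes were also present, with the invariant chain Cd74 at 10.31 to 11.11. Others were dim: Flt3 ran from 6.46 to 8.05 and Itgax from 6.66 to 9.09, where the lowest mean level tested was 6.91. None of the 5 measured hepatocyte genes reached the level at which genes were tested. In such mixed RNA, fewer cells of a type and less RNA per cell cannot be told apart.

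The organ of the dendritic cells was not associated with the level of any measured lipid synthesis gene at the threshold used. In limma's F-test across the 4 organs, 0 of 30 genes had an adjusted p under 0.05, against 0.0403% of all genes tested, and 0 of 30 had an unadjusted p under 0.05, against 2.56%. Set against the mean of the other organs, 0 of 30 passed for liver, MLN, PLN and spleen alike, beside 0%, 0.0941%, 0% and 0% of all genes tested, again with 0 of 30 at an unadjusted p under 0.05 in each, beside 4.26%, 3.71%, 1.21% and 1.91% of all genes tested. None passed in any of the 6 pairs of organs, beside 0.161% of all genes tested for liver against MLN, 0.0134% for MLN against PLN and 0% for the other 4 pairs. With the replicate number as a block, which removes the differences between numbers described below, still 0 of 30 genes passed in each of these comparisons, while the share of all genes called rose to 1.98% in the F-test, 2.14% for liver, 1.36% for MLN and 0.0134% for PLN and stayed at 0% for spleen. Among pairs it was 4.13% for liver against MLN, 1.49% for liver against PLN, 0.148% for MLN against PLN, 0.215% for MLN against spleen and 0% for the other 2. In that blocked fit 3 of 30 genes had an unadjusted p under 0.05 in the F-test, 5 for liver, 2 for MLN, 0 for PLN and 4 for spleen, beside 15.5%, 15.7%, 13.5%, 8.12% and 8.71% of all genes tested. With the number as a random block, 0 of 30 passed as well, beside 0.686% of all genes tested in the F-test, 0.632% for liver, 0.793% for MLN and 0% for PLN and spleen.

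**Figure D2:**
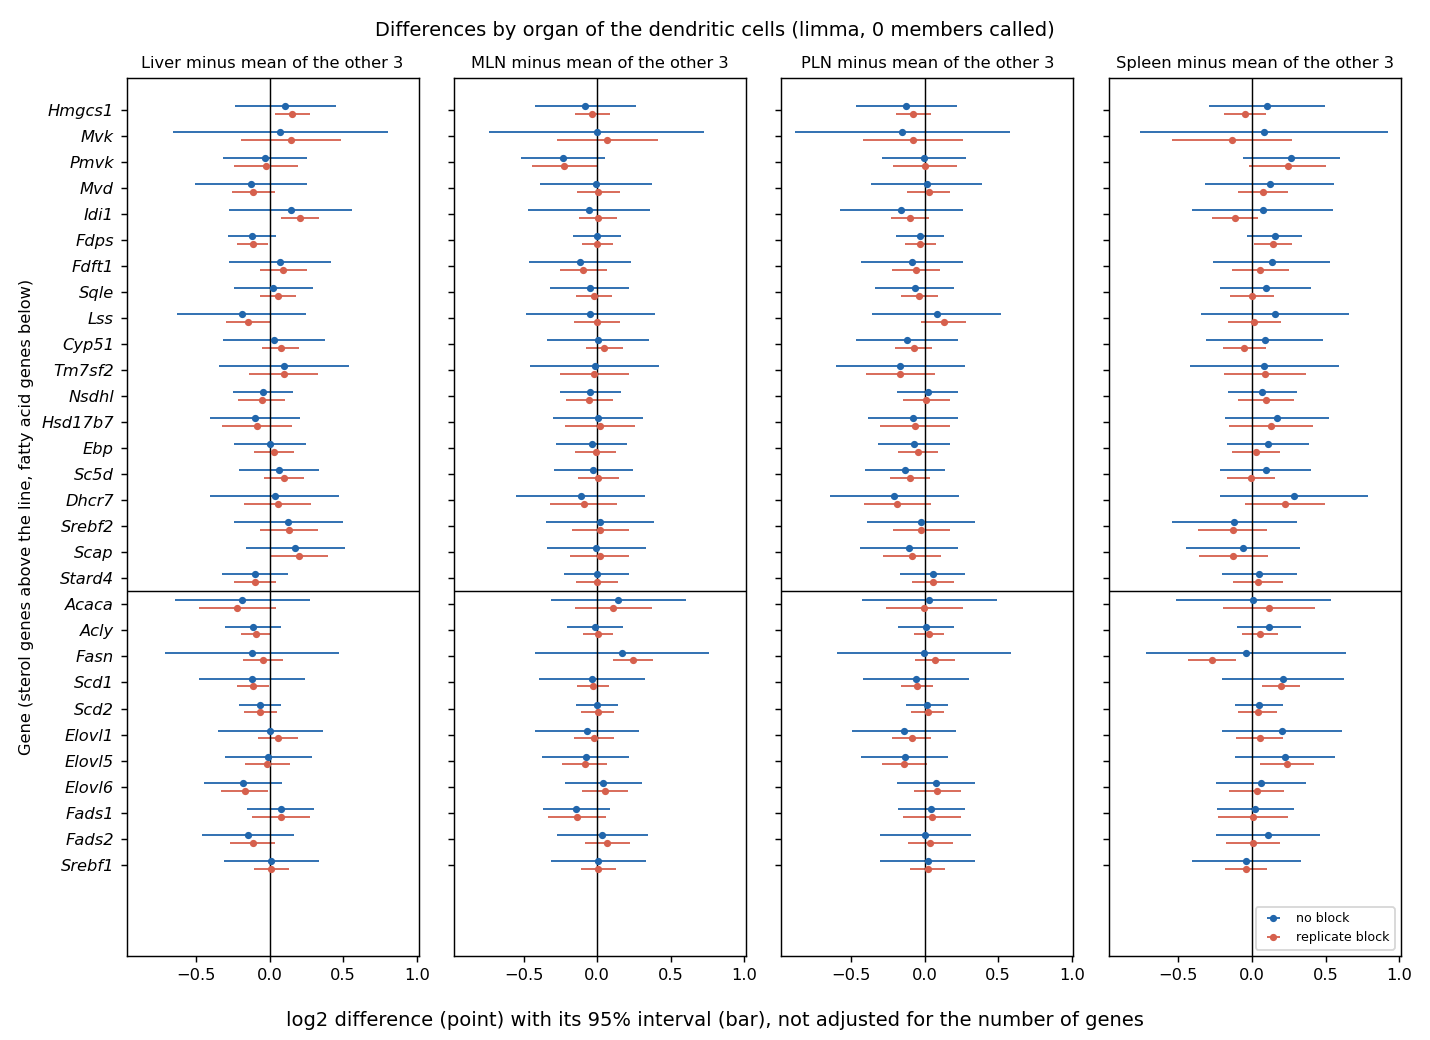
Log2 difference of each organ from the mean of the other 3 (x axis) for the 30 genes (y axis), with 95% intervals that are not adjusted for the number of genes. Blue is the fit without a block and red the fit with the replicate number as a block; the red intervals are shorter, and for liver, MLN and PLN all 30 lie within 0.5 of zero.

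The precision of this comparison was that of 11 arrays. In the blocked fit the 95% intervals of all 30 genes lay between -0.48 and 0.49 for liver, -0.44 and 0.41 for MLN and -0.42 and 0.28 for PLN. For spleen, with 2 arrays, they lay between -0.54 and 0.50. Without the block they reached -0.71 to 0.80 for liver, -0.73 to 0.76 for MLN, -0.88 to 0.59 for PLN and -0.76 to 0.92 for spleen.

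Fasn, the fatty acid synthase that builds palmitate, came closest in 2 organs. Its mean level with liver dendritic cells was 10.59 ± 0.54, with MLN 10.81 ± 0.41 and with PLN 10.68 ± 0.47 (SD, n = 3 each), and with spleen it was 10.65 ± 0.42 (SD, n = 2). In the blocked limma fit it differed by 0.24 in MLN from the mean of the other organs (adjusted p = 0.0895), by -0.27 in spleen (adjusted p = 0.405) and by 0.39 between MLN and spleen (adjusted p = 0.0789). Its MLN array was the highest of its number in numbers 2, 3 and 4 alike, and its spleen array the lowest in numbers 3 and 4. Idi1, which interconverts the isoprenoid building blocks, had the smallest adjusted p for liver, where it differed by 0.20 (adjusted p = 0.104). With liver, MLN and PLN dendritic cells its means were 11.55 ± 0.26, 11.40 ± 0.37 and 11.33 ± 0.39 (SD, n = 3 each), and with spleen 11.50 ± 0.05 (SD, n = 2). The other blocked differences with an unadjusted p under 0.05 were 0.15 for Hmgcs1, -0.12 for Fdps, -0.11 for Scd1 and -0.17 for Elovl6 in liver, -0.22 for Pmvk in MLN, and 0.14 for Fdps, 0.19 for Scd1 and 0.24 for Elovl5 in spleen. Their limma adjusted p ran from 0.193 to 0.523.

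As groups, the sterol genes had a median blocked difference of 0.06 in liver, -0.00 in MLN, -0.06 in PLN and 0.03 in spleen, and the fatty acid genes -0.06, 0.01, 0.02 and 0.04, against 0.01, -0.01, -0.00 and 0.01 over all genes tested. In liver 12 of 19 sterol genes and 3 of 11 fatty acid genes were above the mean of the other organs. Spleen alone lacks number 2, in which most of the set was low. Without the block the spleen medians were 0.09 for sterol genes, with 17 of 19 higher, and 0.06 for fatty acid genes, with 9 of 11 higher, both of which turned below zero with median centring (-0.0033 and -0.0236); with the block 12 of 19 sterol genes and 9 of 11 fatty acid genes were higher.

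Replicate number, by contrast, went with differences in most genes of this set. Of 16 sterol enzymes 10 were higher in the arrays numbered 4 than in those numbered 3, as were Srebf2, Scap, Stard4, Srebf1, the desaturases Scd1 and Fads2 and the elongase Elovl5, while Acaca, Fasn, Elovl6 and Idi1 were lower. In limma's F-test across numbers, with the organ as a term, 23 of 30 genes passed (76.7%), beside 48.1% of all genes tested. Between numbers 4 and 3, 21 of 30 passed (70%), beside 43.3%; between 4 and 2, 19 passed (63.3%), beside 27.2%; and between 3 and 2, 8 passed (26.7%), beside 18.9%. The numbers thus differed across much of the array, and the shares of the set are to be read against those shares. The 3 comparisons share arrays, so their counts are not independent of each other.

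The directions were uneven. Of the 21 genes between numbers 4 and 3, 17 were higher in number 4 (56.7% of the set, beside 22.3% of all genes) and 4 lower (13.3%, beside 21%). Between numbers 4 and 2, 18 were higher in number 4 (60%, beside 14.8%) and 1 lower (3.33%, beside 12.4%). Between numbers 3 and 2, 6 were higher in number 3 (20%, beside 9.29%) and 2 lower (6.67%, beside 9.59%). Each of the genes that passed had the same direction in every organ measured in both numbers, 4 of 4 organs between numbers 4 and 3 and 3 of 3 organs in the other comparisons. The same differences decided which genes passed, so this agreement follows largely from the selection. Median differences of the sterol genes were 0.22, 0.36 and 0.04 in the order 4 minus 3, 4 minus 2 and 3 minus 2, those of the fatty acid genes 0.11, 0.22 and 0.03, and those of all genes tested 0.01, 0.01 and -0.00.

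**Figure D3:**
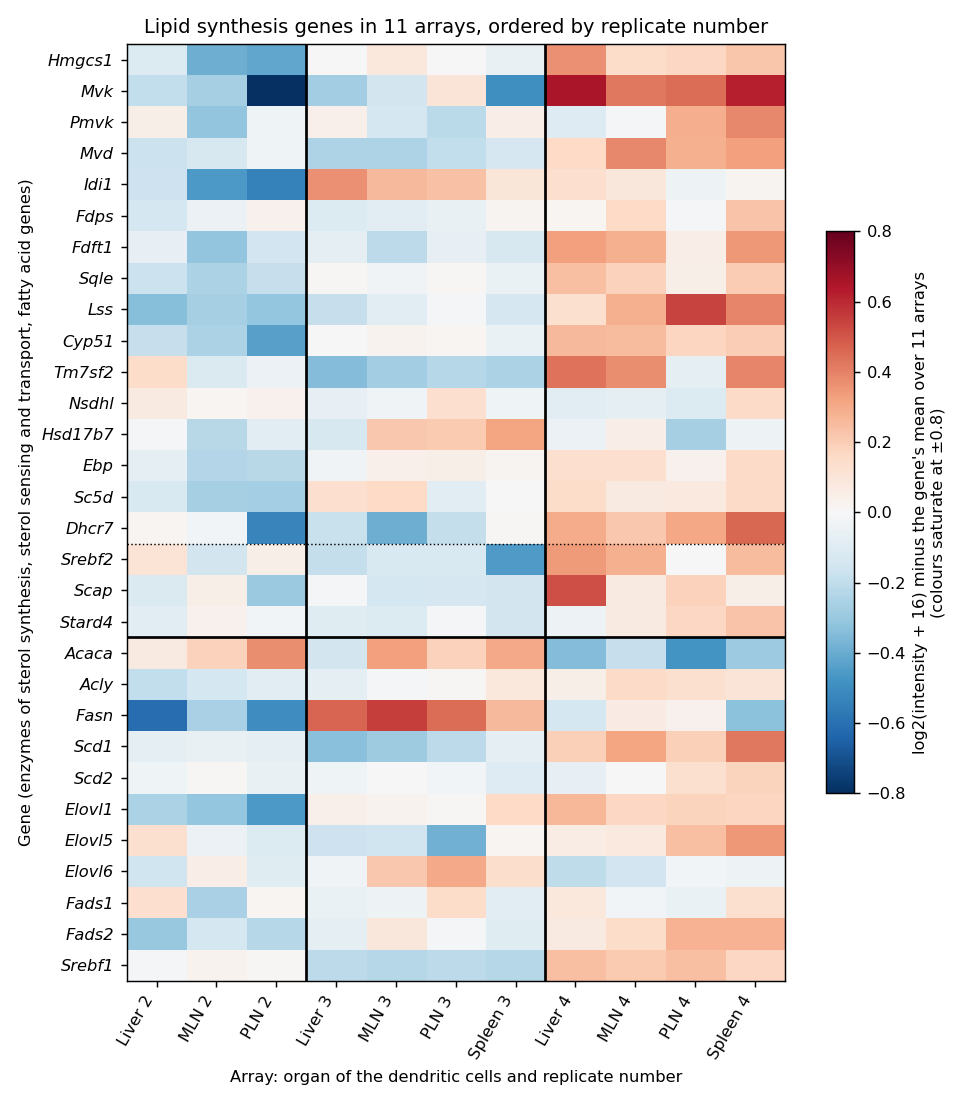
Level of each of the 30 genes (rows) in each of the 11 arrays (columns, named by organ and replicate number) as log2(intensity + 16) minus the gene's mean over the arrays, red above and blue below. Vertical lines separate the replicate numbers; most rows change at these lines and little between organs within a number, with Acaca blue and Mvk, Lss and Scd1 red in number 4 and Fasn and Idi1 red in number 3.

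**Figure D4:**
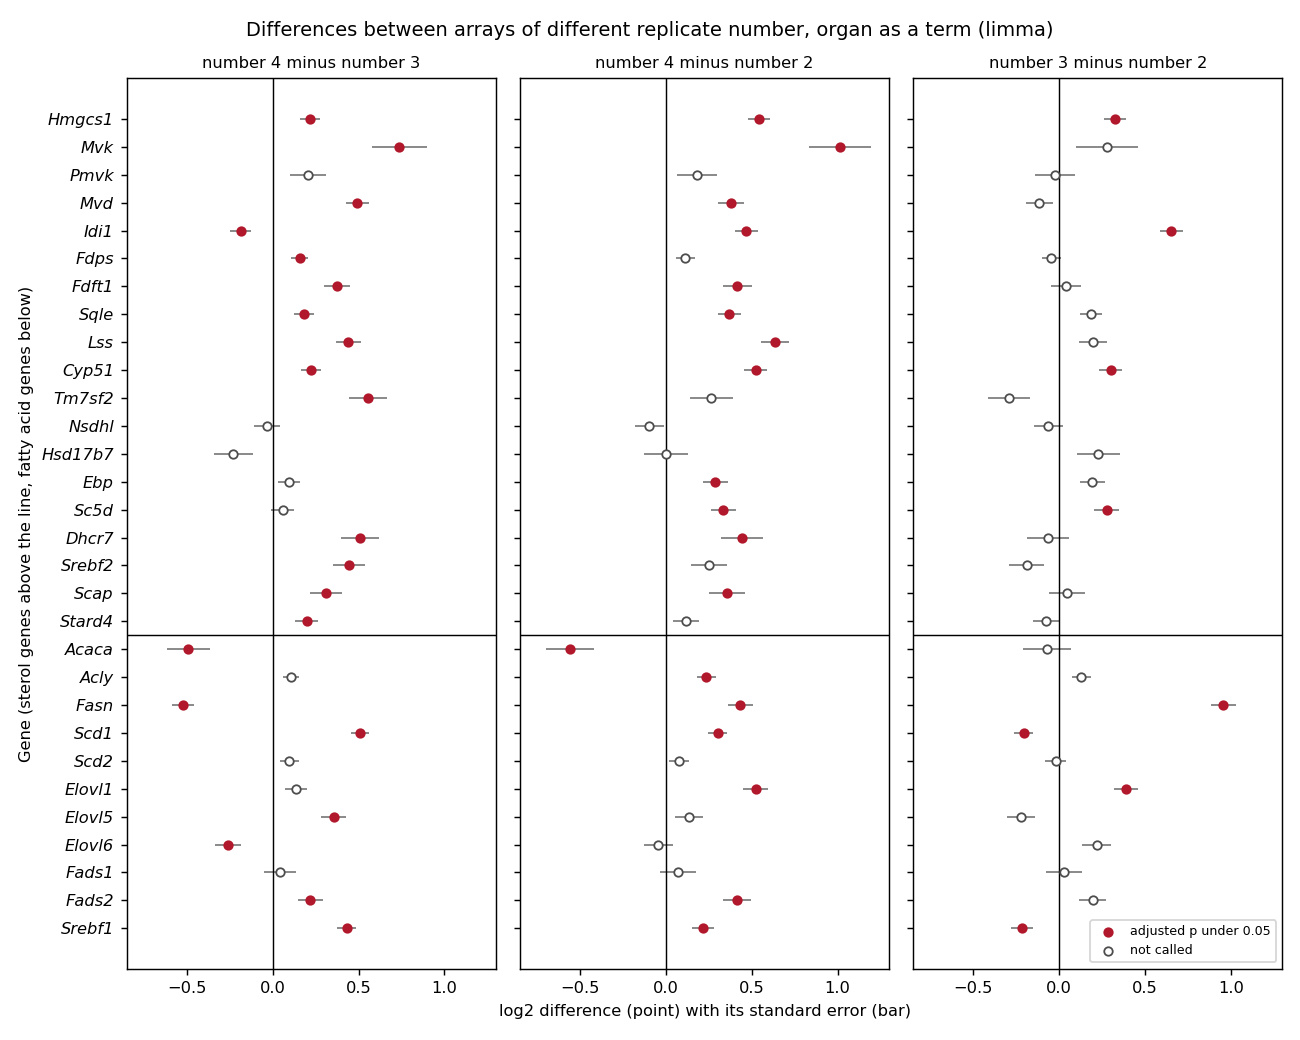
Log2 difference (x axis, point) with its standard error (bar) of each gene (y axis) between replicate numbers 4 and 3, 4 and 2, and 3 and 2, with the organ as a term. Filled red points have a limma adjusted p under 0.05: 21, 19 and 8 of 30 in the 3 panels, with 17, 18 and 6 of them to the right of zero.

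The variance of the levels split the same way. The replicate number held a median of 74.5% of a sterol gene's variance and 76.1% of a fatty acid gene's, against 50.1% over all genes tested, and the organ, after the number, 9.09% and 12.9% against 18.3%. The number held more than the organ for 17 of 19 sterol genes, 10 of 11 fatty acid genes and 5331 of 7436 genes tested. The share ran from 5.62% for Fads1 to 98.5% for Srebf1. Between arrays numbered 4 and 3, 17 of 30 genes did not overlap, beside 37.5% of all genes tested; between 4 and 2, 18 of 30, beside 31.1%; and between 3 and 2, 14 of 30, beside 27.1%. The mean level was highest in number 4 for 16 of 19 sterol genes and 8 of 11 fatty acid genes, and lowest in number 2 for 12 and 5 of them. The same counts over all genes tested are not given here, so these last counts describe the set only.

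In the sentences that follow, values stand in the order liver, MLN, PLN for number 2 and liver, MLN, PLN, spleen for numbers 3 and 4, and differences come from limma with p-values adjusted over all genes tested.

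Early steps of the mevalonate pathway were highest in number 4. Hmgcs1, which makes HMG-CoA from acetyl-CoA units, had levels of 12.85, 12.57 and 12.55 in the arrays numbered 2, 12.97, 13.05, 12.96 and 12.91 in those numbered 3 and 13.33, 13.11, 13.13 and 13.19 in those numbered 4. The 3 numbers did not overlap. Its difference was 0.54 (SE 0.06, adjusted p = 0.000181) between numbers 4 and 2, 0.22 (SE 0.06, adjusted p = 0.00894) between 4 and 3 and 0.33 (SE 0.06, adjusted p = 0.00550) between 3 and 2. Mvk, which phosphorylates mevalonate, had levels of 7.96, 7.89 and 7.29 in the arrays numbered 2, 7.88, 8.01, 8.26 and 7.67 in those numbered 3 and 8.81, 8.58, 8.61 and 8.78 in those numbered 4. All arrays numbered 4 were above all others, by 0.74 (SE 0.16, adjusted p = 0.00312) against number 3 and 1.01 (SE 0.18, adjusted p = 0.00197) against number 2. Mvd, the decarboxylase that yields isopentenyl diphosphate, had levels of 9.76, 9.80 and 9.90 in the arrays numbered 2, 9.68, 9.68, 9.74 and 9.80 in those numbered 3 and 10.09, 10.31, 10.21 and 10.26 in those numbered 4. Number 4 again stood above both others, by 0.49 (SE 0.07, adjusted p = 0.000141) against number 3 and 0.38 (SE 0.08, adjusted p = 0.00384) against number 2, and numbers 3 and 2 overlapped.

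Idi1 and Fdps, the isoprenoid steps after Mvd, differed from this pattern. Idi1 had levels of 11.28, 10.98 and 10.90 in the arrays numbered 2, 11.80, 11.70, 11.68 and 11.54 in those numbered 3 and 11.58, 11.53, 11.40 and 11.46 in those numbered 4. Number 2 was below both others, by 0.47 (SE 0.07, adjusted p = 0.000607) against number 4 and by 0.65 (SE 0.07, adjusted p = 0.000189) for number 3 minus number 2. Numbers 4 and 3 overlapped, and their difference of -0.19 (SE 0.06, adjusted p = 0.0278) was lower in number 4 in each organ; it was not called when the liver or PLN array numbered 4, or the MLN or PLN array numbered 3, was left out (adjusted p from 0.0709 to 0.115). Fdps, which makes farnesyl diphosphate, had levels of 12.46, 12.55 and 12.63 in the arrays numbered 2, 12.49, 12.51, 12.54 and 12.62 in those numbered 3 and 12.61, 12.76, 12.58 and 12.83 in those numbered 4. Its arrays overlapped between every pair of numbers, and of its differences only that of number 4 minus number 3 passed, at 0.16 (SE 0.05, adjusted p = 0.0236); it no longer passed when either MLN array or either spleen array numbered 3 or 4 was left out (adjusted p from 0.0790 to 0.0984). Pmvk, the kinase between Mvk and Mvd, did not pass; its levels ran from 9.14 to 9.50 in number 2, 9.24 to 9.51 in number 3 and 9.35 to 9.84 in number 4. Without Liver replicate 4 its difference of number 4 minus number 3 passed, at 0.32 (adjusted p = 0.0188).

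The squalene and lanosterol steps were higher in number 4. Fdft1, the squalene synthase, had levels of 10.50, 10.25 and 10.42 in the arrays numbered 2, 10.49, 10.35, 10.50 and 10.44 in those numbered 3 and 10.89, 10.85, 10.62 and 10.91 in those numbered 4. Number 4 lay above the others without overlap, by 0.37 (SE 0.08, adjusted p = 0.00188) against number 3 and 0.42 (SE 0.08, adjusted p = 0.00414) against number 2. Sqle, the squalene epoxidase that commits squalene to sterols, had levels of 10.96, 10.88 and 10.95 in the arrays numbered 2, 11.14, 11.10, 11.14 and 11.08 in those numbered 3 and 11.37, 11.31, 11.17 and 11.33 in those numbered 4. No 2 numbers overlapped. Its difference was 0.37 (SE 0.07, adjusted p = 0.00195) between numbers 4 and 2 and 0.18 (SE 0.06, adjusted p = 0.0242) between 4 and 3, and number 3 minus number 2 did not pass at 0.19 (SE 0.07, adjusted p = 0.0719); the difference between 4 and 3 was lost when any 1 of the liver, MLN and spleen arrays numbered 3 or 4 was left out (adjusted p from 0.0579 to 0.0906). Lss, which closes the rings of lanosterol, had levels of 10.07, 10.15 and 10.10 in the arrays numbered 2, 10.23, 10.32, 10.40 and 10.28 in those numbered 3 and 10.54, 10.69, 10.95 and 10.80 in those numbered 4. These too separated by number, with differences of 0.64 (SE 0.08, adjusted p = 0.000293) between 4 and 2, 0.44 (SE 0.07, adjusted p = 0.000490) between 4 and 3 and 0.20 (SE 0.08, adjusted p = 0.118) between 3 and 2, the last not passing. Cyp51, the lanosterol demethylase, had levels of 10.86, 10.79 and 10.60 in the arrays numbered 2, 11.04, 11.07, 11.05 and 10.98 in those numbered 3 and 11.30, 11.29, 11.21 and 11.23 in those numbered 4. Its differences were 0.52 (SE 0.07, adjusted p = 0.000276), 0.22 (SE 0.06, adjusted p = 0.00967) and 0.30 (SE 0.07, adjusted p = 0.00939) in the same order, and the last was not called without PLN replicate 2 (adjusted p = 0.0705).

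Later sterol enzymes were mixed. Tm7sf2, a sterol reductase, had levels of 8.74, 8.48 and 8.55 in the arrays numbered 2, 8.25, 8.32, 8.37 and 8.35 in those numbered 3 and 9.03, 8.97, 8.53 and 8.99 in those numbered 4. Number 4 exceeded number 3 by 0.56 (SE 0.11, adjusted p = 0.00166); against number 2 the difference was 0.26 (SE 0.12, adjusted p = 0.136), and without PLN replicate 4, its lowest array in number 4, it was 0.40 (adjusted p = 0.0307). Ebp, a sterol isomerase, had levels of 10.37, 10.22 and 10.23 in the arrays numbered 2, 10.42, 10.49, 10.50 and 10.47 in those numbered 3 and 10.59, 10.59, 10.49 and 10.61 in those numbered 4. Number 2 was below both others, and number 4 minus number 2 was 0.29 (SE 0.07, adjusted p = 0.0126), a call lost when the MLN array numbered 2, the MLN array numbered 4 or the PLN array numbered 2 was left out (adjusted p = 0.0823, 0.0510 and 0.0594). Sc5d, a sterol desaturase, had levels of 10.43, 10.29 and 10.28 in the arrays numbered 2, 10.69, 10.71, 10.47 and 10.56 in those numbered 3 and 10.70, 10.62, 10.63 and 10.70 in those numbered 4. It was higher than in number 2 by 0.33 (SE 0.07, adjusted p = 0.00601) in number 4 and by 0.28 (SE 0.07, adjusted p = 0.0220) in number 3; the latter was lost when the liver array numbered 3, either MLN array or the PLN array numbered 2 was left out (adjusted p from 0.0595 to 0.112). Dhcr7, the reductase that completes cholesterol, had levels of 9.44, 9.41 and 8.90 in the arrays numbered 2, 9.25, 9.04, 9.24 and 9.44 in those numbered 3 and 9.73, 9.65, 9.74 and 9.89 in those numbered 4. It was higher in number 4 by 0.51 (SE 0.11, adjusted p = 0.00256) against number 3 and by 0.44 (SE 0.12, adjusted p = 0.0182) against number 2; without PLN replicate 2, its lowest array, the latter was 0.24 (adjusted p = 0.112), and without PLN replicate 4 adjusted p was 0.0757. Nsdhl and Hsd17b7, which remove methyl groups and reduce the ring ketone, did not pass; Nsdhl ran from 10.16 to 10.42 and Hsd17b7 from 8.27 to 8.85 over all arrays. Hsd17b7 passed in number 4 minus number 3 without Liver replicate 3, at -0.34 (adjusted p = 0.0317).

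The genes of sterol sensing and transport were also higher in number 4 than in number 3. Srebf2, the regulator of sterol enzymes, had levels of 10.80, 10.54 and 10.74 in the arrays numbered 2, 10.50, 10.57, 10.57 and 10.24 in those numbered 3 and 11.03, 10.98, 10.69 and 10.95 in those numbered 4. Numbers 4 and 3 did not overlap, with a difference of 0.44 (SE 0.09, adjusted p = 0.00241); number 4 minus number 2 was 0.25 (SE 0.10, adjusted p = 0.0938), and 0.38 without PLN replicate 4 (adjusted p = 0.0163). Scap, the escort of the SREBPs, had levels of 9.83, 9.98 and 9.64 in the arrays numbered 2, 9.92, 9.80, 9.80 and 9.80 in those numbered 3 and 10.45, 10.01, 10.12 and 9.99 in those numbered 4. Number 4 was above both others, by 0.31 (SE 0.09, adjusted p = 0.0178) against number 3 and 0.36 (SE 0.10, adjusted p = 0.0251) against number 2. The first call was lost when either liver array, the MLN array numbered 3 or the PLN array numbered 4 was left out (adjusted p from 0.0543 to 0.0785), and the second when either liver or either PLN array of these numbers was (adjusted p from 0.0775 to 0.125). Stard4, a carrier of cholesterol between membranes, had levels of 10.52, 10.64 and 10.59 in the arrays numbered 2, 10.51, 10.50, 10.60 and 10.46 in those numbered 3 and 10.57, 10.68, 10.77 and 10.84 in those numbered 4. Its arrays overlapped between numbers, and number 4 minus number 3 was 0.20 (SE 0.07, adjusted p = 0.0330), which was lost when any 1 of the MLN, PLN and spleen arrays of these numbers was left out (adjusted p from 0.0535 to 0.167).

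Among the fatty acid genes, Srebf1, the regulator of fatty acid synthesis, followed the replicate number most closely. It had levels of 10.66, 10.70 and 10.68 in the arrays numbered 2, 10.46, 10.45, 10.47 and 10.44 in those numbered 3 and 10.91, 10.88, 10.91 and 10.84 in those numbered 4. Arrays of one number lay close together, and the 3 numbers did not overlap. Its mean was 10.68 ± 0.02 (SD, n = 3) in number 2, 10.45 ± 0.01 (SD, n = 4) in number 3 and 10.89 ± 0.04 (SD, n = 4) in number 4, and number 4 minus number 3 was 0.43 (SE 0.06, adjusted p = 9.70e-05). Number 4 minus number 2 was 0.22 (SE 0.06, adjusted p = 0.0246) and number 3 minus number 2 was -0.21 (SE 0.06, adjusted p = 0.0349). The standard error is moderated across genes and is larger than the spread of these arrays. The former call was lost without any 1 of the 6 liver, MLN and PLN arrays numbered 2 or 4 (adjusted p from 0.0616 to 0.0918), and the latter without any 1 of the 6 numbered 2 or 3 (adjusted p from 0.0652 to 0.135).

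Acly, Acaca and Fasn did not share a pattern across the replicate numbers. Acly, which releases cytosolic acetyl-CoA from citrate, had levels of 11.64, 11.69 and 11.74 in the arrays numbered 2, 11.76, 11.82, 11.85 and 11.92 in those numbered 3 and 11.88, 11.99, 11.96 and 11.94 in those numbered 4. Number 2 was below both others, and number 4 minus number 2 was 0.24 (SE 0.05, adjusted p = 0.00780). Acaca, the carboxylase that makes malonyl-CoA, had levels of 7.86, 7.97 and 8.15 in the arrays numbered 2, 7.64, 8.11, 7.97 and 8.09 in those numbered 3 and 7.44, 7.60, 7.31 and 7.50 in those numbered 4. Every array numbered 4 was below every other array. The difference was -0.49 (SE 0.12, adjusted p = 0.00708) for number 4 minus number 3 and -0.56 (SE 0.14, adjusted p = 0.0114) for number 4 minus number 2, and the latter was not called without PLN replicate 2 (adjusted p = 0.0774). Fasn had levels of 10.08, 10.43 and 10.18 in the arrays numbered 2, 11.15, 11.24, 11.13 and 10.95 in those numbered 3 and 10.54, 10.75, 10.72 and 10.36 in those numbered 4. Number 3 stood above both others without overlap. Number 3 minus number 2 was 0.95 (SE 0.07, adjusted p = 4.59e-05), the largest of the 30 genes in that comparison, number 4 minus number 2 was 0.43 (SE 0.07, adjusted p = 0.00136) and number 4 minus number 3 was -0.52 (SE 0.06, adjusted p = 6.76e-05). These calls held whichever array was left out.

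Desaturases and elongases did not share a direction. Scd1, a stearoyl-CoA desaturase that makes oleate, had levels of 11.67, 11.69 and 11.68 in the arrays numbered 2, 11.42, 11.46, 11.54 and 11.67 in those numbered 3 and 11.94, 12.07, 11.94 and 12.18 in those numbered 4. Number 4 was above and number 3 below the rest, with differences of 0.51 (SE 0.05, adjusted p = 1.52e-05) for 4 minus 3, 0.30 (SE 0.06, adjusted p = 0.00292) for 4 minus 2 and -0.21 (SE 0.06, adjusted p = 0.0272) for 3 minus 2. The last was lost when either liver or either MLN array of these numbers or the PLN array numbered 2 was left out (adjusted p from 0.0765 to 0.100). Scd2, its close relative, had levels of 13.21, 13.26 and 13.19 in the arrays numbered 2, 13.21, 13.25, 13.23 and 13.15 in those numbered 3 and 13.18, 13.24, 13.38 and 13.43 in those numbered 4. It did not pass: number 4 minus number 3 was 0.10 (SE 0.05, adjusted p = 0.159), with a 95% interval of -0.02 to 0.21.

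Elovl1, an elongase of very long saturated chains, had levels of 10.36, 10.30 and 10.16 in the arrays numbered 2, 10.66, 10.64, 10.62 and 10.78 in those numbered 3 and 10.88, 10.78, 10.79 and 10.78 in those numbered 4. Its numbers did not overlap, with differences of 0.52 (SE 0.07, adjusted p = 0.000396) for 4 minus 2, 0.39 (SE 0.07, adjusted p = 0.00370) for 3 minus 2 and 0.13 (SE 0.06, adjusted p = 0.108) for 4 minus 3, the last not passing. Elovl5, an elongase of polyunsaturated chains, had levels of 11.69, 11.52 and 11.45 in the arrays numbered 2, 11.39, 11.40, 11.18 and 11.58 in those numbered 3 and 11.62, 11.64, 11.80 and 11.91 in those numbered 4. Number 4 was above number 3, by 0.36 (SE 0.07, adjusted p = 0.00190). Elovl6, which extends palmitate to stearate, had levels of 9.74, 9.95 and 9.81 in the arrays numbered 2, 9.87, 10.12, 10.21 and 10.05 in those numbered 3 and 9.70, 9.75, 9.88 and 9.86 in those numbered 4. Number 4 minus number 3 was -0.26 (SE 0.07, adjusted p = 0.0136), lower in 4 of 4 organs, although the arrays overlapped; the call was lost without MLN replicate 4 or PLN replicate 3 (adjusted p = 0.0597 and 0.0636).

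Fads2, a desaturase of polyunsaturated fatty acids, had levels of 9.67, 9.83 and 9.75 in the arrays numbered 2, 9.89, 10.06, 9.96 and 9.87 in those numbered 3 and 10.04, 10.12, 10.25 and 10.25 in those numbered 4. Number 2 was lowest in liver, MLN and PLN, and number 4 minus number 2 was 0.41 (SE 0.08, adjusted p = 0.00331). Number 4 minus number 3 was 0.22 (SE 0.07, adjusted p = 0.0280), which was lost when either PLN or either spleen array of these numbers was left out (adjusted p from 0.0803 to 0.130). Fads1, the desaturase next to it in the pathway, did not pass in any comparison and ran from 8.87 to 9.28 over all arrays.

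Other settings also ended some of these calls. Number 4 minus number 3 was no longer called with median centring for Hmgcs1, Idi1, Fdps, Sqle, Cyp51, Stard4 and Fads2 (limma adjusted p from 0.0574 to 0.201), with intensities as deposited for Sqle (0.0547), without the low filter for Fdps (0.0573), and without the variance trend for Hmgcs1, Idi1, Fdps, Sqle and Stard4 (0.0508 to 0.0962). Number 4 minus number 2 was lost with median centring for Acly, Scd1 and Srebf1 (0.0585 to 0.120). Number 3 minus number 2 was lost for Hmgcs1, Scd1 and Srebf1 with intensities as deposited (0.0647 to 0.0668) and with median centring (0.169 to 0.307), and for Scd1 and Srebf1 without the trend (0.0848 and 0.0620). Without the organ term, Idi1 and Fdps for 4 minus 3, Scap for 4 minus 2 and Scd1 for 3 minus 2 were lost (0.0530 to 0.174). With every alternative tried, 11 genes stayed called for 4 minus 3 (Mvk, Mvd, Lss, Tm7sf2, Dhcr7, Srebf2, Acaca, Fasn, Scd1, Elovl5 and Srebf1), 9 for 4 minus 2 (Hmgcs1, Mvk, Mvd, Idi1, Sqle, Cyp51, Fasn, Elovl1 and Fads2) and 3 for 3 minus 2 (Idi1, Fasn and Elovl1). The share of all genes that stayed called in this way is not given here.

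**Figure D5:**
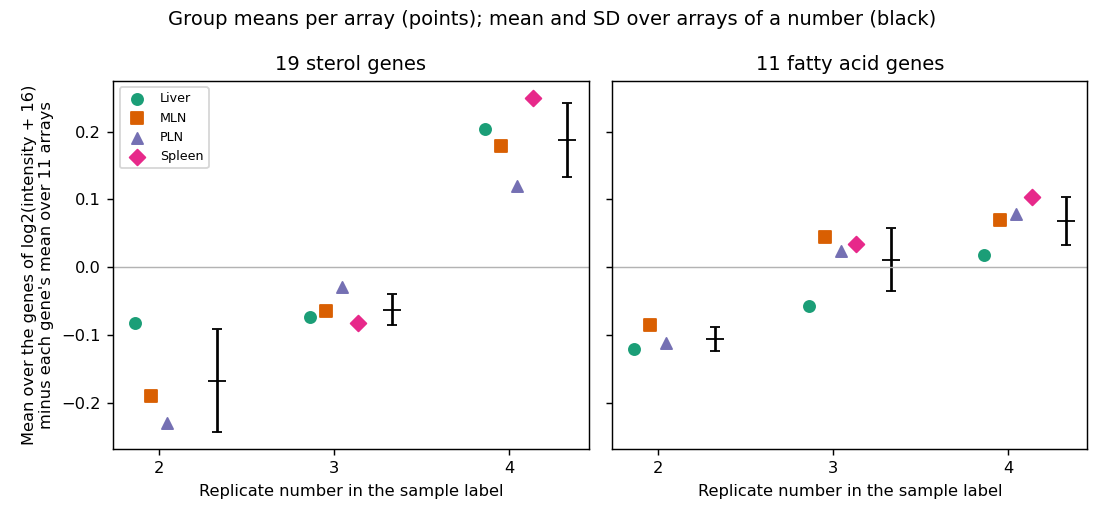
Mean over the 19 sterol genes (left) and the 11 fatty acid genes (right) of the level minus each gene's mean over 11 arrays (y axis), by replicate number (x axis). Each point is an array, its shape and colour give the organ of the dendritic cells, and the black bar is the mean ± SD of the arrays of a number; the sterol means are 0.12 to 0.25 in number 4, -0.08 to -0.03 in number 3 and -0.23 to -0.08 in number 2, and the fatty acid means of numbers 3 and 4 overlap.

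The array means of the groups show the same. The mean of the 19 sterol genes, each set to its own mean over the arrays, was -0.08, -0.19 and -0.23 in liver, MLN and PLN numbered 2. It was -0.07, -0.06, -0.03 and -0.08 in liver, MLN, PLN and spleen numbered 3 and 0.20, 0.18, 0.12 and 0.25 in those numbered 4. The number 4 arrays were above all others, and liver number 2 was level with the number 3 arrays. For the 11 fatty acid genes the means were -0.12, -0.09 and -0.11 in number 2, -0.06, 0.04, 0.02 and 0.03 in number 3 and 0.02, 0.07, 0.08 and 0.10 in number 4, so that number 2 was below the rest and numbers 3 and 4 overlapped.

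Several genes were measured by further probe sets, which target other parts of the same transcripts. For 19 of the 30 genes there were 30 such probe sets. Among genes that passed, 18 of 20 further probe sets had the sign of the one used for number 4 minus number 3, 15 of 22 for number 4 minus number 2 and 9 of 10 for number 3 minus number 2. The further probe sets of Hmgcs1 gave 0.66, 0.57 and 0.46 for number 4 minus number 2, and that of Srebf2 gave 0.70 for number 4 minus number 3. That of Mvd gave 0.62 and that of Scd1 gave 0.11 for the same comparison. In that comparison those of Hmgcs1 gave 0.35, 0.19 and 0.01, against 0.22 for the one used. That of Idi1 gave -0.01, against -0.19, so an equal sign can go with a difference near zero. For Mvk the further probe set gave smaller differences than the 0.74 and 1.01 of the one used. They were 0.34 for number 4 minus number 3 and 0.32 for number 4 minus number 2. Disagreement was seen for Sc5d, where a further probe set gave -0.25 for number 4 minus number 2, for Lss, where it gave -0.19, for Stard4, where it gave -0.07 for number 4 minus number 3, and for Fdft1, where a dim one gave -0.81 for number 4 minus number 2. The further probe set of Scd1 gave 0.06 for number 3 minus number 2, where the one used gave -0.21. For Acly 3 of 4 further probe sets opposed the call for number 4 minus number 2, at -0.05, -0.15 and -0.92, the first of them above the low filter and the other 2 below it. With the mean of all probe sets of a gene, Fdft1 and Acly differed by -0.03 and -0.12 in that comparison (limma adjusted p = 0.920 and 0.453). That mean also ended calls for Idi1, Fdps, Fdft1, Stard4 and Elovl6 in 4 minus 3 (0.0766 to 0.735), for Lss and Sc5d in 4 minus 2 (0.125 and 0.816), and for Sc5d and Scd1 in 3 minus 2 (0.396 and 0.465). For Acaca, Srebf1, Fasn, Dhcr7, Tm7sf2, Ebp, Scap, Nsdhl, Pmvk, Sqle and Fads1 no further probe set was used here.

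Neighbouring genes of sterol metabolism were listed as well, and their counts stand beside the shares of all genes called. In number 4 minus number 3 these were 22.3% higher and 21% lower. They were 14.8% and 12.4% in number 4 minus number 2, and 9.29% and 9.59% in number 3 minus number 2. The share of all genes with a positive difference is not given here. Of 20 further sterol and SREBP-related genes listed, 12 were measured and 11 tested. In number 4 minus number 3 all 11 had a positive difference (median 0.22) and 6 passed: the sterol oxidase Msmo1 at 0.29, the lysosomal cholesterol transporters Npc1 at 0.33 and Npc2 at 0.22, the acetyl-CoA synthetase Acss2 at 0.95, the malic enzyme Me1 at 0.59 and the lipin Lpin1 at 0.60. In number 4 minus number 2 the median was -0.01; Msmo1 (0.63), Npc2 (0.26), Acss2 (0.44) and Me1 (0.60) were higher in number 4 and Insig2, a retention partner of Scap, was lower (-0.37). In number 3 minus number 2 Msmo1 was higher (0.33) and Insig2 (-0.41), Npc1 (-0.40), Acss2 (-0.51) and Lpin1 (-0.40) were lower, with limma adjusted p from 0.00462 to 0.0428.

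Genes of sterol export and of fatty acid breakdown were also listed, and their counts too stand beside the shares of all genes given above. Of 8 genes of sterol efflux and the liver X receptor, 7 were measured and 5 tested. Mylip, which degrades lipoprotein receptors, was higher in number 4 by 0.56 against number 3 and by 0.47 against number 2. Plin2, a lipid droplet coat protein, was higher by 0.49 against number 3, and Lpcat3, a phospholipid acyltransferase, by 0.34 against number 2, while the exporters Abca1 and Abcg1 did not pass in any comparison. Of 13 genes of fatty acid oxidation, 12 were measured and 11 tested. Their median differences were 0.19, 0.17 and -0.15 in the order 4 minus 3, 4 minus 2 and 3 minus 2. Between numbers 4 and 3, 4 of the 11 were called higher and 1 lower, beside 22.3% and 21% of all genes tested. In number 4 minus number 3 the carnitine acyltransferase Cpt1a (0.33), the dehydrogenases Acadl (0.53) and Hadha (0.52) and the carnitine carrier Slc25a20 (0.52) were higher and the electron transfer flavoprotein subunit Etfa was lower (-0.23). In number 4 minus number 2 Acadl (0.39) and Hadha (0.39) were higher and Etfa lower (-0.49), and in number 3 minus number 2 Etfa (-0.25) and Etfdh (-0.36) were lower. Between organs, 0 genes of these 3 lists passed without the block; with it Me1 was lower in liver and higher in MLN (-0.61 and 0.56, limma adjusted p = 0.00554 and 0.00749).

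Markers of other cells also differed between replicate numbers, and the counts below stand beside 43.3% of all genes called between numbers 4 and 3, 22.3% higher and 21% lower. Of 9 dendritic cell genes, all tested, 7 were lower and 1, Itgax, was higher in number 4 than in number 3 (median difference -0.59), with Ccl22 at -1.83 and Itgax at 1.85. The log2 of their summed intensities ran from 12.62 to 12.75 in number 2, 13.14 to 13.35 in number 3 and 12.33 to 12.72 in number 4. Number 3 thus had the highest sum, with no overlap. Such a sum weighs bright genes most, and Ccl22 had the highest mean level of the 9 (10.72). Whether the number of dendritic cells differed was not tested. Of the 9 genes 8 were higher in number 3 than in number 2, but only Ccl17 (0.79) and Ccl22 (1.43) passed. Of 4 tested macrophage genes 2 were lower in number 4 than in number 3, and the summed levels of the 7 measured were 11.33 to 11.88, 11.62 to 11.97 and 11.15 to 11.69 in numbers 2, 3 and 4. Of 3 tested B cell genes 2 were higher, with sums of 9.52 to 9.84, 8.89 to 9.33 and 9.31 to 9.53. Of 8 T cell genes 3 were higher, among them Cd3e at 0.91, and 2 lower, with sums of 14.29 to 14.59, 14.33 to 14.43 and 14.48 to 14.73. Of 9 cell cycle genes 4 were lower, with sums of 14.22 to 14.56, 14.39 to 14.49 and 14.13 to 14.44. Their part in the differences of the lipid synthesis genes was not tested.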

How the data were processed

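Gene expression of T cells was measured on 11 mouse arrays. The deposited values were linear intensities for 22690 probe sets, between 0.1 and 21556.3, and the authors had scaled them to 1 trimmed mean, as the values show (2% off each end); the software is not named in the labels. After 64 control probe sets were left out, 20380 probe sets had 1 gene symbol in the platform annotation, 691 several and 1555 none. For each of 12393 genes the probe set of highest mean was used. Levels were log2(intensity + 16), quantile normalized; the upper 60% by mean, 7436 genes with mean levels of 6.91 or more, entered the tests of limma (version 3.58.1, in R 4.3.3; lmFit, and eBayes with a variance trend), with Benjamini-Hochberg adjustment over all genes tested and a threshold of 0.05. The number of arrays limits the precision.

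Organs were compared without a block (7 residual degrees of freedom) and replicate numbers with the organ as a term (5). Deviations from organ means correlated at 0.412 to 0.731 for 15 pairs of arrays with the same number and at -0.708 to 0.0841 for 30 pairs with different numbers and different organs; pairs of one organ were left out. By these values 11 of 11 arrays correlated best with their own number, so that the numbers pair the arrays; this pairing comes from the data and not from the labels. The blocked values are given beside the organ results. The scripts were tested on simulated data.

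Every listed gene is accounted for, and values in every array are given for each gene that passed a test, for the genes of highest and lowest level in each role group and for a fixed few. The genes, lists and marker genes were chosen with earlier results of these data known. Promoter windows came from RefSeq's annotation of GRCm38.p6 and matched 23 of 30 genes by symbol. Alternatives were other scalings, pseudocounts of 1 and 64, no low filter, the mean of all probe sets, no variance trend, no organ term, the number as a fixed or random block, and leaving out each array.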

Additional observations from a re-analysis of the deposited data

Results flagged for a closer look

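For each of the 30 genes, the 4 arrays numbered 3 and the 4 numbered 4 were checked for 1 array far from the rest, by Dixon's ratio of the gap to the range at its critical value for 4 samples. Of these 60 groups 4 passed, and chance marks about 1 in 20 groups. Tm7sf2, a sterol reductase, was at 8.526 in PLN replicate 4, below 8.967 to 9.03 in the other arrays numbered 4. Ebp, a sterol isomerase, was at 10.49 in the same array, below 10.59 to 10.61. Nsdhl, a sterol dehydrogenase, was at 10.42 in Spleen replicate 4, above 10.16 to 10.19. Scap, the SREBP escort, was at 9.922 in Liver replicate 3, above 9.797 to 9.804 in the other arrays numbered 3. The causes were not tested.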

How the results depend on the processing

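Under all 20 alternatives 0 of 30 genes passed in the F-test across organs, in any organ against the mean of the others and in any pair, the replicate block included, which changed no call of these genes. Counts between numbers 4 and 3 (21) ran from 16 to 21 with 1 array left out and fell to 14 with median centring; those between 4 and 2 (19) ran from 14 to 19 and were 16 with median centring. The count between 3 and 2 (8) was 5 with intensities as deposited, 5 with median centring and 4 to 10 with 1 array left out: 4 without PLN replicate 2, 5 without the liver array numbered 3 or either MLN array of these numbers, and 10 without PLN replicate 4. With the mean of all probe sets the fatty acid median was 0.0788 for 4 minus 2, against 0.22, and -0.0695 for 3 minus 2, against 0.03; Fdft1 and Acly then turned to -0.0314 and -0.119 for 4 minus 2, where further probe sets of the opposite sign enter the mean. The fatty acid median in spleen ran from 0.0468 to 0.156 with 1 array left out, the highest without Spleen replicate 3, and with median centring it was -0.0236, while the sterol medians of spleen and MLN changed sign to -0.0033 and 0.0363. With 1 array left out the sterol medians of liver, MLN, PLN and spleen crossed zero (-0.08 to 0.07, -0.12 to 0.06, -0.14 to 0.01 and -0.04 to 0.24), as did the fatty acid medians of MLN (-0.09 to 0.05), PLN (-0.05 to 0.05) and number 3 minus number 2 (-0.02 to 0.11). Without the spleen arrays, a setting chosen after seeing the data, 23 genes passed in the F-test across numbers, 17 for 4 minus 3, 19 for 4 minus 2 and 8 for 3 minus 2. Other causes of these changes were not tested. The share of all genes called under each alternative is not given here. The counts above therefore do not show whether the set changed more than other genes did. No detection call per probe set was used here, so signal over background limits low levels to an unknown degree.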
